A study of Homo sapiens with 4 samples.

Results

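The binding proteins and receptors of the insulin-like growth factors (IGFs) are described here in the human osteosarcoma line 143B after knockdown of FTO. The 10 genes are the binding proteins IGFBP1 to IGFBP7 and the receptors IGF1R, IGF2R and INSR. They were taken by gene name from a deposited table of 11972 protein-coding genes, and all 10 were listed. The family was chosen on values of these same libraries: IGFBP1 was already known to be low in the knockdown cells. The differences between the groups are therefore given for the 10 genes as a description and not as a test, and the choice had no numeric threshold.

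The 2 groups were 143B cells stably carrying a short hairpin against FTO (shFTO, 2 libraries) and 143B cells carrying control plasmids (shCtrl, 2 libraries), both grown in medium with puromycin. FTO encodes a demethylase of N6-methyladenosine in RNA. The labels do not state whether each line was a clone or a pool, nor whether libraries with the same hairpin are separate cultures, so a p-value here reflects library-to-library variation that may be technical. Values are FPKM, fragments per kilobase of transcript, scaled to the mapped fragments of the library, which can be compared between genes because they are per length.

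IGF1 and IGF2 are small secreted ligands. They signal through the tyrosine kinase IGF1R, and in part through the closely related insulin receptor INSR, while IGF2R takes IGF2 into the cell for degradation. The binding proteins are secreted, hold the ligands away from the receptors or deliver them, and are in turn cut by proteases. In bone, IGFs are stored in the matrix and drive growth and matrix synthesis of osteoblasts, the lineage from which osteosarcoma is thought to arise.

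FTO was at 0.268 and 0.242 FPKM in the shFTO libraries and at 1.14 and 0.665 FPKM in the shCtrl libraries, so the targeted transcript was lower in both knockdown libraries. These levels are low, with 1 FPKM reached in only 1 library. In a fit over all listed genes the difference in log2(FPKM + 1) was -0.59 (SE 0.16, limma adjusted p = 0.313). This scale understates the change of a low gene: the mean FTO level was 0.255 against 0.902 FPKM, 71.7% lower in shFTO. The FPKM of a library summed to between 200555 and 212531, and read depth is unknown. Across genes on the log2 scale, the correlation of the shFTO pair was r = 0.964, within the range of 0.961 to 0.973 between shFTO and shCtrl libraries, and that of the shCtrl pair was 0.983. Of 9 osteoblast markers 5 were listed. The matrix protein gene SPARC was at 61.3 to 85.3 FPKM, whereas the lineage factor gene RUNX2 was at 0.431 to 0.577 and ALPL at 0.32 to 0.934 FPKM. COL1A1 was at 0.643 to 2.07 and SPP1 at 4.4 to 7.59 FPKM. COL1A2, SP7, IBSP and BGLAP were not among the listed genes, and of the listed osteoblast markers only SPARC exceeded 7.59 FPKM. The listed osteoblast markers summed to 78 and 67.3 FPKM in shFTO and to 91.6 and 93.1 FPKM in shCtrl. Most of this was SPARC, at 67.4 and 61.3 against 82.1 and 85.3 FPKM. COL1A1 was also lower in both shFTO libraries, while RUNX2, ALPL and SPP1 overlapped. The mesenchymal markers, 4 of 4 listed, summed to 408 and 382 against 301 and 314 FPKM. Within that list FN1 was at 43 and 89 against 12.3 and 9.2 FPKM. CDH2 was also higher in both shFTO libraries, at 35.6 and 38.9 against 34 and 32 FPKM. VIM overlapped at 329 and 253 against 253 and 271 FPKM. S100A4 was lower in both shFTO libraries at 1.04 and 1.1 against 1.38 and 1.98 FPKM. Of 3 epithelial markers EPCAM was listed (2.43 to 4.46 FPKM), and of 3 leukocyte markers CD68 (13.4 and 25.8 FPKM in shFTO, 11.9 and 13.4 FPKM in shCtrl), with PTPRC and CD3E not among the listed genes. The part of these marker levels in the differences given here was not tested. Of 4 hepatocyte markers, chosen because the liver is a main source of IGFBP1, 0 were listed, and of 3 endothelial markers 0 were listed.

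Promoter sequence was looked up for every member. RefSeq's table (GRCh38.p14) held 8 of the 10 members; IGFBP1 and IGFBP7 had no entry. The 250 bases before the start are shown for IGFBP4 and IGFBP6, which were lower in both shFTO libraries, and for INSR, which was higher in both. Capitals mark 3 short motifs searched on both strands: TATAAA, the core of the TATA element; GTAAACA, a core bound by FOXO factors, which act downstream of insulin and IGF signalling; and GGGCGG, the GC box bound by SP1. The coordinates of these windows are on GRCh38.p14, unlike those of the deposited table (hg19).
IGFBP4, chr17:40443200-40443449, plus strand: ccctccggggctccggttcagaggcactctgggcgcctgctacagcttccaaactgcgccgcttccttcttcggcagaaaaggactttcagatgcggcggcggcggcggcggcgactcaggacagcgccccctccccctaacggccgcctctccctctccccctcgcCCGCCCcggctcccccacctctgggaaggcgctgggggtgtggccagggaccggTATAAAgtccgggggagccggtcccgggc
IGFBP6, chr12:53097417-53097666, plus strand: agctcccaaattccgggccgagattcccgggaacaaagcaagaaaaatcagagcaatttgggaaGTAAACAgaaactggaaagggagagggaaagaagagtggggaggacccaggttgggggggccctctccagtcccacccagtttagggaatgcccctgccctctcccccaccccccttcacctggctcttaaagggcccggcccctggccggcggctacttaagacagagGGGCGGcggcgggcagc
INSR, chr19:7294415-7294664, minus strand: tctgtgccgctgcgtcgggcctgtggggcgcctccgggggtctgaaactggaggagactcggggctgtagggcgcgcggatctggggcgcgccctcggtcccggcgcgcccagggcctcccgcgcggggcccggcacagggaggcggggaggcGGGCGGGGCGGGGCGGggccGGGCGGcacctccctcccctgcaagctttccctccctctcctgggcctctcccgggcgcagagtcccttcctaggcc

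The IGFBP4 window held 1 TATAAA, 29 bases before the start, and 1 GC box. TATAAA was in 10.7% of all 35116 promoter windows of this length. The IGFBP6 window held 1 GTAAACA, 186 bases before the start, which was in 2.98% of all windows, and 1 GC box. The INSR window held 4 GC boxes, of which 3 overlap by a base each, and neither of the other motifs. The receptor windows were rich in G and C, at 81.2% for IGF1R, 79.2% for IGF2R and 78.4% for INSR, against a median of 58% over all windows. The binding protein windows ran from 56.4% for 1 of the IGFBP2 windows to 76% for IGFBP3, with IGFBP4 at 71.6%. The IGF1R and IGF2R windows held 2 and 6 GC boxes, a motif present in 42.6% of all windows. These matches are descriptions of the letters in these windows only.

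The levels spread over a wide range. IGFBP4 was the most abundant member, with 26.3 to 50.2 FPKM over the 4 libraries and a mean of 37.2 ± 12.1 FPKM (SD, n = 4), above 92% of the listed genes by mean. IGFBP6 followed at 17.8 to 29.7 FPKM, a range that overlapped that of IGFBP4. In shFTO and in shCtrl taken separately, the IGFBP4 libraries lay above the IGFBP6 libraries. Next came IGF2R (11.7 to 15 FPKM), IGFBP7 (8.75 to 14.2), IGF1R (7.83 to 12.2), IGFBP3 (5.69 to 14) and IGFBP2 (7.25 to 9.4). Neighbours in this middle group did not differ beyond their spread, but all of it lay below IGFBP6. IGFBP5 (0.421 to 4.98 FPKM), IGFBP1 (0.218 to 3.54) and INSR (0.698 to 1.46) formed the lowest group, again with overlapping ranges, and every value in it lay below IGFBP2. INSR was above only 10.4% of the listed genes by mean.

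**Figure D1:**
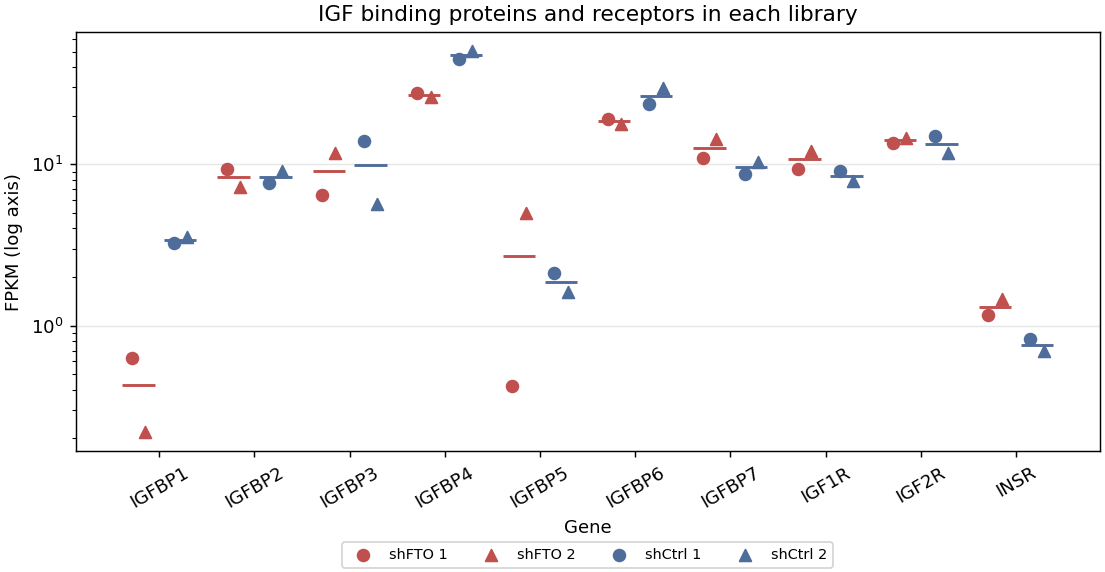
FPKM of the 10 genes in each library on a log axis, with shFTO in red, shCtrl in blue, replicate 1 as circles, replicate 2 as triangles and group means as lines. IGFBP1, IGFBP4 and IGFBP6 are lower in both shFTO libraries, INSR is higher in both, and the 2 shFTO values of IGFBP5 lie at 0.421 and 4.98 FPKM.

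IGFBP1 encodes a secreted binding protein whose transcription insulin represses and which also binds an integrin through its RGD motif. The gene lies on chromosome 7 from 45927956 to 45933267 on the plus strand (hg19). It was at 0.632 and 0.218 FPKM in the shFTO libraries and at 3.25 and 3.54 FPKM in the shCtrl libraries. Both shFTO values thus lay far below both shCtrl values, although the shFTO pair itself differed 2.89 times. The mean was 0.425 ± 0.292 against 3.39 ± 0.201 FPKM (SD, n = 2 each), 87.5% lower in shFTO. As log2(FPKM + 1), shFTO minus shCtrl, this came to -1.64 (SE 0.19, 95% confidence interval -2.10 to -1.18). This scale understates the change of a low gene: with a pseudocount of 0.1 the difference was -2.85. In bulk RNA, fewer cells expressing a gene and less of its RNA per cell cannot be told apart.

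IGFBP4, which mostly inhibits IGF action and is made by bone-forming cells, had close replicates. The gene lies on chromosome 17 from 38599713 to 38613983 on the plus strand. It was at 27.5 and 26.3 FPKM in the shFTO libraries and at 44.8 and 50.2 FPKM in the shCtrl libraries. The lowest shCtrl value was well above both shFTO values. The mean was 26.9 ± 0.88 against 47.5 ± 3.79 FPKM (SD, n = 2 each), 43.4% lower, a log2 difference of -0.80 (SE 0.14, 95% confidence interval -1.14 to -0.46).

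IGFBP6, whose product prefers IGF2 over IGF1, lies on chromosome 12 from 53491220 to 53496129 on the plus strand. It was at 19.1 and 17.8 FPKM in the shFTO libraries and at 23.5 and 29.7 FPKM in the shCtrl libraries. The groups did not overlap, but the gap between the nearest libraries was smaller than the spread of the shCtrl pair. The mean was 18.4 ± 0.901 against 26.6 ± 4.39 FPKM (SD, n = 2 each), 30.7% lower, a difference of -0.50 (SE 0.17, 95% confidence interval -0.91 to -0.09). Without shCtrl replicate 2 it was -0.33.

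IGFBP7 encodes a related protein that binds IGFs with low affinity. The gene lies on chromosome 4 from 57896939 to 57976551 on the minus strand. It was at 10.9 and 14.2 FPKM in the shFTO libraries and at 8.75 and 10.4 FPKM in the shCtrl libraries, so both shFTO values lay above both shCtrl values by a narrow gap. The mean was 12.6 ± 2.33 against 9.57 ± 1.15 FPKM (SD, n = 2 each), a difference of 0.36 whose interval holds 0 (SE 0.19, 95% confidence interval -0.11 to 0.82). Without shFTO replicate 2 it was 0.18. The gene shares 396 bases with POLR2B on the other strand, and the sources used here do not say if counting took strand into account.

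IGFBP2, IGFBP3 and IGFBP5 had overlapping groups. IGFBP2, an RGD-bearing binding protein (chromosome 2, 217497551 to 217529159, plus strand), was at 9.4 and 7.25 FPKM in the shFTO libraries and at 7.62 and 9.06 FPKM in the shCtrl libraries. Its means were nearly equal, with a difference of -0.01 (95% confidence interval -0.47 to 0.45). IGFBP3, the main carrier of IGFs in blood (chromosome 7, 45951844 to 45961473, minus strand), was at 6.48 and 11.7 FPKM in the shFTO libraries and at 14 and 5.69 FPKM in the shCtrl libraries. The highest and the lowest value were both from shCtrl. Its difference was -0.04, with an interval from -1.11 to 1.04, and it was 0.54 without shCtrl replicate 1 and -0.62 without shCtrl replicate 2.

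IGFBP5, which binds bone matrix (chromosome 2, 217536828 to 217560248, minus strand), was at 0.421 and 4.98 FPKM in the shFTO libraries and at 2.11 and 1.61 FPKM in the shCtrl libraries. The shFTO pair differed 11.8 times and enclosed both shCtrl values. On the log2(FPKM + 1) scale only 0.257% of the genes tested had a wider gap between the shFTO libraries. The mean was 2.7 ± 3.23 against 1.86 ± 0.351 FPKM (SD, n = 2 each), a difference of 0.03 (95% confidence interval -1.53 to 1.59). The direction depended on the library: leaving out shFTO replicate 1 gave a difference of 1.07, and leaving out shFTO replicate 2 gave -1.0. IGFBP3 had the wider gap in the other group, where 0.791% of the genes tested exceeded it between the shCtrl libraries.

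**Figure D2:**
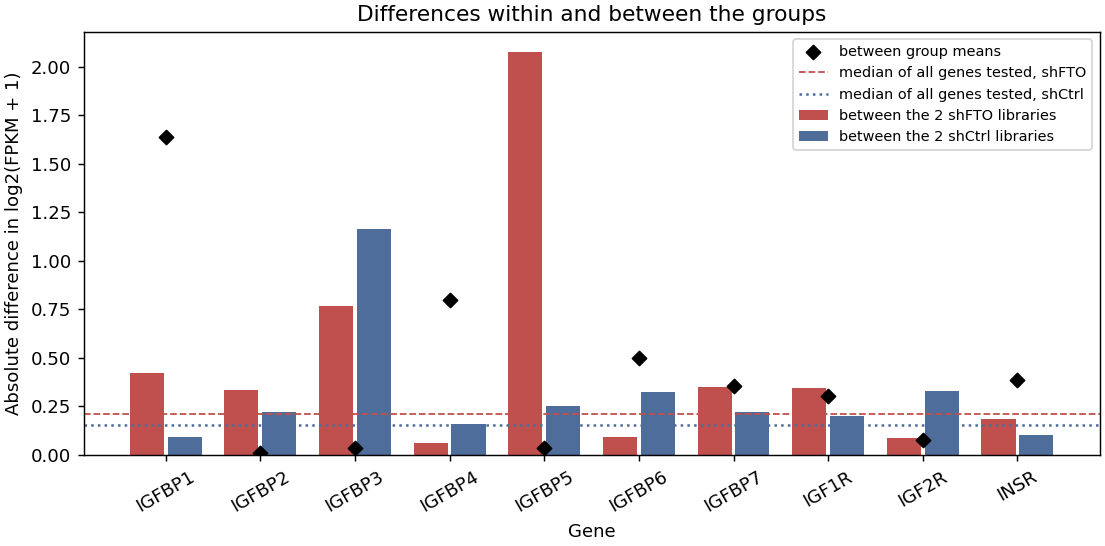
Absolute differences in log2(FPKM + 1) between the 2 shFTO libraries (red bars), between the 2 shCtrl libraries (blue bars) and between the group means (diamonds), with the median of all genes tested as dashed and dotted lines at 0.21 and 0.15. The diamond lies above both bars for IGFBP1, IGFBP4, IGFBP6, INSR and, barely, IGFBP7, and far below a bar for IGFBP3 and IGFBP5.

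Among the receptors, INSR, the insulin receptor tyrosine kinase (chromosome 19, 7112266 to 7294045, minus strand), was at 1.16 and 1.46 FPKM in the shFTO libraries and at 0.825 and 0.698 FPKM in the shCtrl libraries. Both shFTO values were the higher ones. The mean was 1.31 ± 0.21 against 0.762 ± 0.0894 FPKM (SD, n = 2 each), 71.7% higher, a log2(FPKM + 1) difference of 0.39 (SE 0.14, 95% confidence interval 0.03 to 0.74). It was 0.70 with a pseudocount of 0.1.

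IGF1R, the main signalling receptor for both IGFs (chromosome 15, 99192200 to 99507759, plus strand), was at 9.38 and 12.2 FPKM in the shFTO libraries and at 9.13 and 7.83 FPKM in the shCtrl libraries. The lower shFTO value and the higher shCtrl value almost met. The mean was 10.8 ± 1.97 against 8.48 ± 0.922 FPKM (SD, n = 2 each), a difference of 0.31 whose interval holds 0 (95% confidence interval -0.15 to 0.76). It was 0.13 without shFTO replicate 2.

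IGF2R, the mannose phosphate receptor that clears IGF2 and has no kinase domain (chromosome 6, 160390131 to 160534539, plus strand), was at 13.6 and 14.5 FPKM in the shFTO libraries and at 15 and 11.7 FPKM in the shCtrl libraries. The shFTO values lay between the shCtrl values. The difference was 0.08 (95% confidence interval -0.34 to 0.50), and -0.09 without shCtrl replicate 2.

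**Figure D3:**
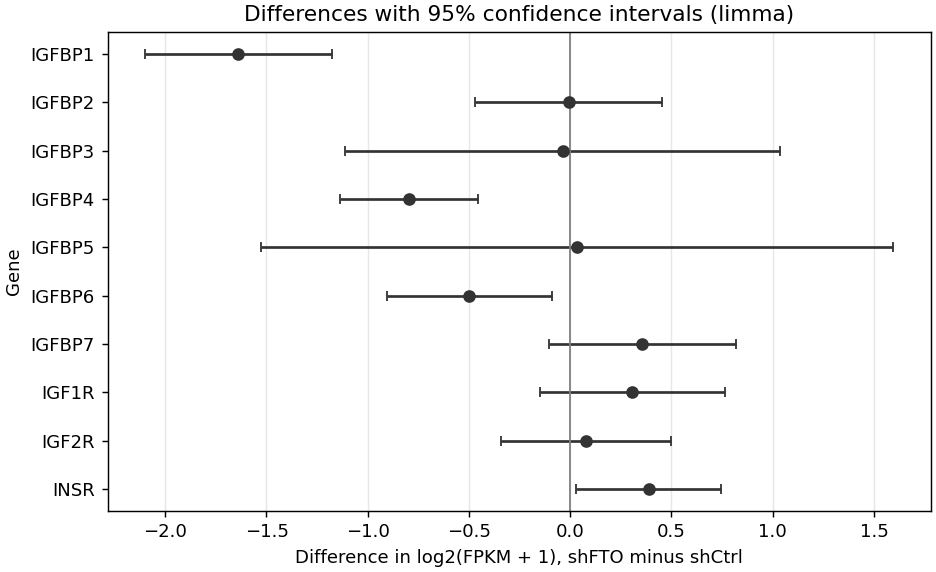
Difference in log2(FPKM + 1), shFTO minus shCtrl, for each gene with its 95% confidence interval from limma. The intervals of IGFBP1, IGFBP4 and IGFBP6 lie below 0, that of INSR lies above 0, and those of the other 6 genes hold 0.

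Counted together, the groups did not overlap for 3 members with shFTO lower (IGFBP1, IGFBP4 and IGFBP6) and for 3 with shFTO higher (IGFBP7, IGF1R and INSR). Over all 10873 genes tested the groups did not overlap with shFTO lower for 18.1% and with shFTO higher for 24.6%. All 10 members reached the expression minimum of the test (at least 1 FPKM in at least 2 libraries), but IGFBP1 did so only through shCtrl and INSR only through shFTO, so both had to differ. At a limma adjusted p under 0.05 over all genes, 0 of the 10 members passed, beside 0.0276% of all genes tested. At an unadjusted limma p under 0.05, 4 members passed (IGFBP1, IGFBP4, IGFBP6 and INSR), beside 10.9% of all genes tested. Nothing is read from these counts, since the family was chosen with this contrast known. The count of 0 moved with the library left out: 3 members passed without shFTO replicate 1 (IGFBP1, IGFBP4 and IGFBP5) and 2 without shFTO replicate 2 (IGFBP1 and IGFBP5, the latter in the opposite direction). Calls rose across the whole table in these settings, from 3 of 10873 genes to 429 without shFTO replicate 1 and to 217 without shFTO replicate 2. The median difference was 0.01 over the 10 members and 0.02 over all genes tested. It was -0.04 over the 7 binding proteins and 0.31 over the 3 receptors.

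The balance of the family was then described within each library. The FPKM of the 7 binding proteins summed to 74.4 and 82.4 in the shFTO libraries and to 104 and 110 in the shCtrl libraries. The sum was lower in both shFTO libraries, with a mean of 78.4 ± 5.67 against 107 ± 4.34 (SD, n = 2 each), 26.7% lower. IGFBP4 carried 72% of this gap of 28.6 FPKM and IGFBP6 28.5%, while IGFBP1, at its low level, carried 10.4%. IGFBP7 lay in the opposite direction and offset 3.02 FPKM of the gap. Without IGFBP4 the sum was 46.9 and 56.2 FPKM against 59.2 and 60 FPKM.

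Of the summed binding protein FPKM, IGFBP4 made up 36.9% and 31.8% in shFTO replicates 1 and 2, against 43.1% and 45.6% in shCtrl replicates 1 and 2. IGFBP7 made up 14.7% and 17.3% against 8.42% and 9.43%. IGFBP1 made up 0.849% and 0.265% against 3.13% and 3.21%. IGFBP2 made up 12.6% and 8.79% against 7.33% and 8.23%. For these 4 genes the shares did not overlap between the groups, with IGFBP4 and IGFBP1 lower and IGFBP7 and IGFBP2 higher in shFTO. Beside this, the FPKM of all genes tested did not overlap with shFTO lower for 18.1% and with shFTO higher for 24.6%. The family was chosen with IGFBP1 known to be low, so nothing is read from this count. The shares of a library are not independent of each other. IGFBP2 itself had a mean of 8.32 against 8.34 FPKM, so its larger share comes with the smaller sum. The shares of IGFBP3, IGFBP5 and IGFBP6 overlapped, that of IGFBP6 at 25.6% and 21.6% against 22.6% and 26.9%. A share within a library does not depend on the scaling of that library.

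**Figure D4:**
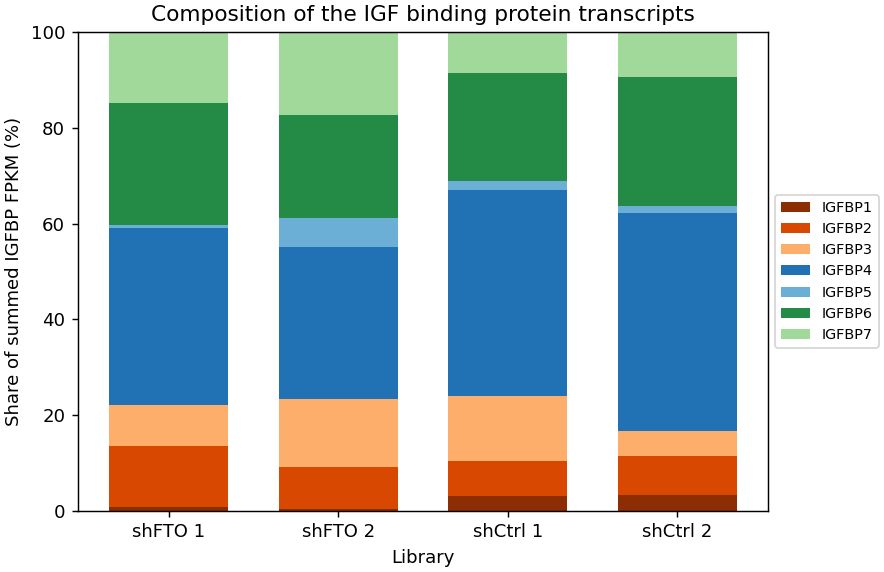
Share of each binding protein in the summed FPKM of the 7 IGFBP genes, in percent, as stacked bars for the 4 libraries. The IGFBP4 segment is smaller (36.9% and 31.8% against 43.1% and 45.6%) and the IGFBP7 segment larger in both shFTO libraries.

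Relative to IGF1R, the summed binding proteins stood at 7.93 and 6.78 times its FPKM in the shFTO libraries and at 11.4 and 14.1 times in the shCtrl libraries. IGF1R was 8.1 and 8.36 times as abundant as INSR in the shFTO libraries and 11.1 and 11.2 times in the shCtrl libraries. Both ratios were lower in both shFTO libraries. The ratio of IGF2R to IGF1R was 1.45 and 1.19 against 1.64 and 1.5, close together at the nearest libraries.

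The genes also differ in layout. IGFBP1 and IGFBP3 lie on chromosome 7 with their ends facing each other 18.6 kb apart, and IGFBP2 and IGFBP5 lie in the same arrangement on chromosome 2, 7.67 kb apart, with no listed gene between the genes of a pair. The neighbours did not share a pattern over the 4 libraries. IGFBP1 was lower in both shFTO libraries while IGFBP3 overlapped, and IGFBP5 was lowest in shFTO replicate 1, where IGFBP2 was at its highest. The receptor genes span 144 to 316 kb and the binding protein genes 4.91 to 79.6 kb.

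Because FTO acts on methylated adenosines, the motif GGACT, the RNA form of which is a frequent site of N6-methyladenosine, was counted in the longest protein-coding transcript of each gene (GENCODE release 29). IGFBP4 held 4 in 2200 nt and IGFBP6 held 2 in 1177 nt, which is 1.82 and 1.7 per kb. IGFBP1 held 2 in 1653 nt, or 1.21 per kb, and IGFBP7 held 0 in 1427 nt. IGF1R, IGF2R and INSR held 9, 13 and 7, or 0.736, 0.926 and 0.782 per kb. IGFBP5 had 1.45, IGFBP2 0.695 and IGFBP3 0.415 per kb. The median over 11864 listed genes with a transcript was 0.924 per kb, with quartiles at 0.566 and 1.38. The motif is a description of the sequence, and methylation was not measured in these libraries.

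The 3 genes whose profile over the 4 libraries lay nearest to that of IGFBP1, by Euclidean distance on the log2(FPKM + 1) scale, were ANKRD34A (distance 0.54), FAM46B (0.70) and KIT (0.74). They were picked by these same values, so lower values in shFTO follow from the choice. ANKRD34A was at 1.11 and 0.591 FPKM in the shFTO libraries and at 3.12 and 3.52 FPKM in the shCtrl libraries. FAM46B was at 1.52 and 0.512 against 3.05 and 3.45 FPKM. The receptor tyrosine kinase gene KIT was at 1.08 and 0.682 against 2.72 and 2.39 FPKM.

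Other genes of the pathway were taken from 11 lists set by role, holding 101 genes besides the members, of which 91 were listed and 84 tested. At a limma adjusted p under 0.05, 0 of the 84 passed, beside 0.0276% of all genes tested. At an unadjusted limma p under 0.05, 9 were higher and 4 lower, that is 13 of 84, beside 10.9% of all genes tested. The groups did not overlap for 20 with shFTO lower and for 26 with shFTO higher, beside 18.1% and 24.6% of all genes tested. Both counts include PAPPA, IGFLR1 and LRP1, which reached the expression minimum only through shFTO, and ADAM12, which did so only through shCtrl. These genes had to differ, so nothing is read from the counts. The median difference was 0.07, beside 0.02 over all genes tested. The genes named in what follows are those with the smallest p in each list, and their values are given without a call. Without shFTO replicate 1, 9 of the 84 passed, beside 429 of all 10873 genes, and without shFTO replicate 2 it was 4, beside 217.

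Of the ligands, IGF1 and INS were not among the listed genes and IGF2 was. IGF2 was at 13.6 and 1.75 FPKM in the shFTO libraries and at 0.489 and 1.29 FPKM in the shCtrl libraries. The high value came from shFTO replicate 1, and the other shFTO value lay just above the shCtrl pair. The difference was 1.78 (SE 0.75, limma adjusted p = 0.468).

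The proteases of binding proteins and their inhibitors bear on IGFBP4, which the metalloproteinase PAPP-A cuts. PAPPA was at 1.21 and 2.06 FPKM in the shFTO libraries and at 0.797 and 0.558 FPKM in the shCtrl libraries (difference 0.64, limma adjusted p = 0.369). STC1, which encodes an inhibitor of PAPP-A, was at 4.28 and 5.85 FPKM against 1.88 and 1.73 FPKM (difference 1.10, limma adjusted p = 0.163). The protease and its inhibitor gene both had the higher values in shFTO, and neither passed. PAPPA reached the expression minimum of the test only through shFTO, so its direction was fixed by the filter. ADAM12, a protease that can cut binding proteins, was at 0.411 and 0.285 FPKM against 1.37 and 1.17 FPKM (difference -0.75, limma adjusted p = 0.186). ADAM12 reached the minimum only through shCtrl, so its direction was fixed as well. The other inhibitor gene, STC2, was at 23.6 and 24 against 25.9 and 25.7 FPKM.

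Among proteins related to the binding proteins, ESM1 (endocan) was at 159 and 132 FPKM in the shFTO libraries and at 49 and 45.9 FPKM in the shCtrl libraries (difference 1.59, limma adjusted p = 0.0815). CTGF, the connective tissue growth factor gene, was at 146 and 149 FPKM against 250 and 246 FPKM (difference -0.75, limma adjusted p = 0.159). CTGF had close replicates, while the ESM1 shFTO pair differed 1.21 times, near the median of 1.195 over the genes tested. ESM1 and CTGF lay in opposite directions, and neither passed. HTRA1, a secreted protease with a domain like that of the binding proteins, was at 5.01 and 2.85 against 2.05 and 2.45 FPKM (difference 0.57, limma adjusted p = 0.477). Of the 7 tested genes of this list 4 had shFTO lower and 2 had shFTO higher without overlap, beside 18.1% and 24.6% of all genes tested.

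Of the adaptors and phosphatases at the receptor, 0 of 14 tested passed, beside 0.0276% of all genes tested. At an unadjusted limma p under 0.05 it was 3 of 14, beside 10.9%. The median difference was 0.17, beside 0.02 over all genes tested. GRB10, an adaptor that dampens signalling from INSR and IGF1R, was at 12.8 and 13 FPKM in the shFTO libraries and at 7.72 and 6.56 FPKM in the shCtrl libraries (difference 0.77, limma adjusted p = 0.21). IRS2, a docking protein that both receptors phosphorylate, was at 1.87 and 1.41 against 2.83 and 2.99 FPKM (difference -0.57, limma adjusted p = 0.329), and its relative IRS1 was at 3.75 and 3.52 against 4.41 and 4.1 FPKM. GAB1, another docking protein, lay the other way, at 1.17 and 1.5 against 1.15 and 0.806 FPKM, so the docking proteins did not share a direction. PTPN11 (the phosphatase SHP2) was at 40.7 and 58 against 36.9 and 30.4 FPKM (difference 0.52, limma adjusted p = 0.459). PTPN11 shares 488 bases with RPL6, at 174 to 203 FPKM over the libraries, on the other strand.

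**Figure D5:**
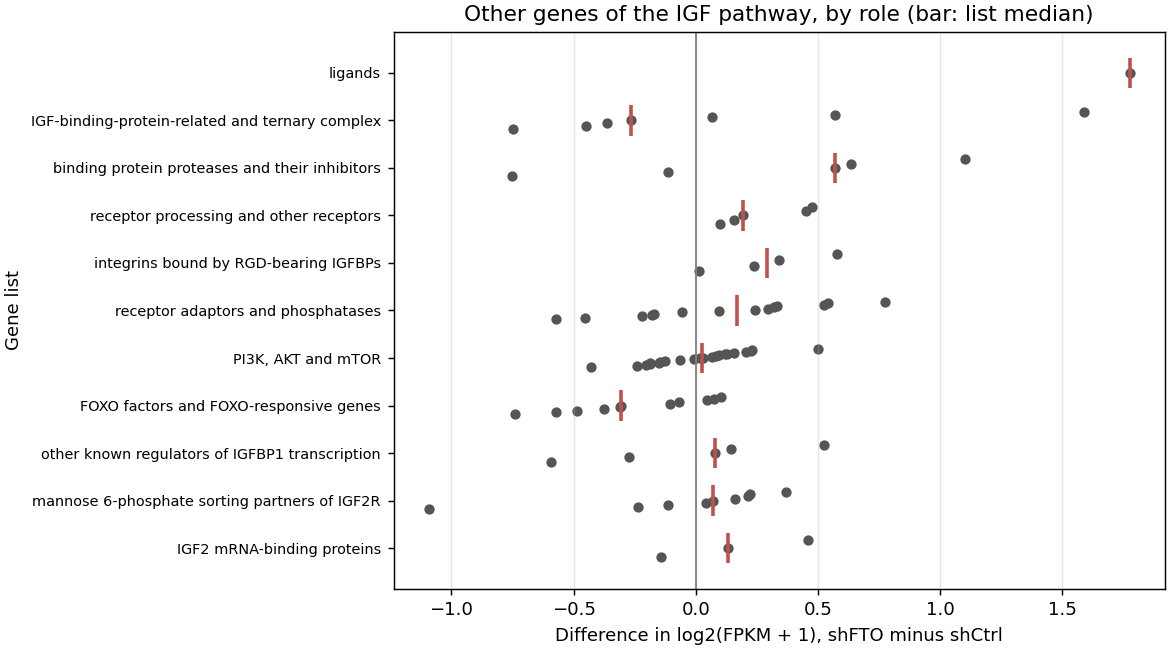
Difference in log2(FPKM + 1), shFTO minus shCtrl, of each tested pathway gene (points) in the 11 lists, with the list median as a red bar and the 10 members left out. The kinases and regulators of PI3K, AKT and mTOR lie on both sides of 0 (median 0.02), the FOXO list has a median of -0.31, and IGF2 lies farthest to the right at 1.78.

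The kinases and regulators of PI3K, AKT and mTOR, which carry the signal onward, went both ways. Of 22 tested, 0 passed and 0 had an unadjusted limma p under 0.05, beside 0.0276% and 10.9% of all genes tested. Without overlap, 3 had shFTO lower and 5 had shFTO higher, beside 18.1% and 24.6% of all genes tested, and the median difference was 0.02. The smallest p-values belonged to GSK3B, AKT1 and RPS6KB1. AKT1 was at 8.21 and 9.33 FPKM in the shFTO libraries and at 7.55 and 7.06 FPKM in the shCtrl libraries (difference 0.23, limma adjusted p = 0.629). GSK3B and RPS6KB1 had differences of 0.50 and -0.43 with overlapping groups.

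FOXO factors and genes they drive, among which IGFBP1 and INSR are counted as known targets, had 11 other tested members, IRS2 among them. Of these 0 passed, beside 0.0276% of all genes tested. Without overlap, 6 had shFTO lower and 0 had shFTO higher, beside 18.1% and 24.6% of all genes tested, and 5 overlapped. The median difference was -0.31, with 8 genes below 0 and 3 above. Of the 14 other genes listed, those below the expression minimum are left out of these counts. Among them FOXO4 was at 0.95 and 1.49 against 0.602 and 0.78 FPKM. FBXO32 was at 2.13 and 0.922 against 0.847 and 0.767 FPKM. Both thus had shFTO higher without overlap, and SESN3 overlapped. The members IGFBP1 and INSR, also left out, lay in opposite directions. FOXO3 was at 2.41 and 4.51 FPKM in the shFTO libraries and at 6.68 and 5.79 FPKM in the shCtrl libraries (difference -0.74, limma adjusted p = 0.412). The transcriptional repressor gene BCL6 was at 3.01 and 2.29 against 3.63 and 3.8 FPKM (difference -0.38, limma adjusted p = 0.495). FOXO1 was at 1.21 and 1.23 against 1.41 and 1.26 FPKM, nearly touching.

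Of other known regulators of IGFBP1, 0 of 5 tested passed, beside 0.0276% of all genes tested. The smallest p-values were those of FOXA2, AHR and EPAS1 (limma adjusted p = 0.57, 0.64 and 0.642). HIF1A, the hypoxia factor that induces IGFBP1, was at 37.4 and 45.7 FPKM in the shFTO libraries and at 42.4 and 36 FPKM in the shCtrl libraries, with overlapping groups.

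Of the integrin subunit genes whose products bind RGD motifs, 0 of 4 tested passed, beside 0.0276% of all genes tested. ITGA5 was at 25.3 and 17.4 FPKM in the shFTO libraries and at 14 and 13.5 FPKM in the shCtrl libraries (difference 0.58, limma adjusted p = 0.412). ITGAV and ITGB1 had differences of 0.34 and 0.24 (limma adjusted p = 0.534 and 0.69). Among receptor processing genes and other receptors 0 of 5 passed, beside the same share of all genes tested. The smallest p-values there were those of IGFLR1 (difference 0.48, limma adjusted p = 0.413), the endocytic receptor gene LRP1 (0.45, 0.433) and PCSK7 (0.19, 0.718), each of which overlaps a listed gene on the other strand.

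Of the genes that sort mannose phosphate cargo with IGF2R, 0 of 9 tested passed, beside 0.0276% of all genes tested. GGA2, a sorting adaptor, was at 10.1 and 10 FPKM in the shFTO libraries and at 7.59 and 7.49 FPKM in the shCtrl libraries (difference 0.37, limma adjusted p = 0.456). M6PR, the smaller mannose phosphate receptor, was at 14 and 6.51 against 32.7 and 14.3 FPKM, spread within both groups (difference -1.09, limma adjusted p = 0.473). M6PR shares 1105 bases with PHC1 on the other strand. AP1M1 differed by 0.22 (limma adjusted p = 0.658). The mRNA-binding proteins IGF2BP1, IGF2BP2 and IGF2BP3, named for their binding to IGF2 mRNA, differed by 0.13, -0.14 and 0.46 (limma adjusted p = 0.906, 0.757 and 0.583). Of the 3, 0 passed, beside 0.0276% of all genes tested. The IGF2BP3 gene shares 1521 bases with MALSU1 on the other strand.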

How the data were processed

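Per the labels' protocols, polyadenylated RNA was made into dUTP libraries and read on an Illumina HiSeq. StringTie, cutadapt, STAR 2.5.2b, HISAT2 2.0.5 and hg19 appear in the submitters' processing notes, which do not say here which made the values. The authors deposited FPKM per gene and library, per the file headers. The log2 fold change deposited by the authors equals the difference of mean log2(FPKM + 1) recomputed here, to within 5.1e-15. The lowest group mean of a listed gene in its higher group was 0.5001 FPKM. Steps of whole reads could not be seen among low values, so depth per library is unknown and no counting interval is given.

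Libraries were grouped by title. Limma 3.58.1 (R 4.3.3) was fitted to log2(FPKM + 1) of the 10873 genes that reached 1 FPKM in 2 or more libraries, using a trended prior variance and leaving out any block. The threshold was a Benjamini-Hochberg adjusted p under 0.05, and the procedure was tested on simulated data. An exact permutation test of 1 gene cannot go below p = 0.333 here. The members, lists and tests were chosen with earlier results of these data known. Named genes were the members, FTO, up to 3 genes of smallest p per list, the 3 nearest to IGFBP1 and the listed cell type markers. STC2, IRS1, GAB1, FOXO1 and HIF1A were added after their values were seen. FOXO4, FBXO32 and SESN3 were also named, outside these rules, as genes of the FOXO list below the expression minimum. Alternatives changed the pseudocount, filter, scaling, trend, block and libraries.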

Additional observations from a re-analysis of the deposited data

How the results depend on the processing

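With 2 libraries per group, limma called 3 genes in the main setting, 0 with a pseudocount of 0.1 (1167 at an unadjusted p under 0.05), 1 without a filter, with median-ratio scaling or without a trend, 15 with a replicate block, and 0 to 429 when 1 library was left out, the 0 without either shCtrl library (509 and 584 at an unadjusted p under 0.05). Of the 10 members 0 passed in the main setting, 1 with a replicate block (IGFBP1) and 0 to 3 with 1 library left out. Of the pathway genes 0 passed, 1 with a replicate block and 0 to 9 with 1 library left out. A lone library is assumed there to vary like the other group. Same-numbered libraries did not deviate together (correlation of their deviations -0.192), and a replicate block with crossed numbers, added after seeing the data, called 0 genes.

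The differences of IGFBP1, IGFBP4, IGFBP6, IGFBP7, IGF1R and INSR kept their sign under each alternative that gave a value (IGFBP1 and INSR had none with a mean of at least 5 FPKM), which the lack of overlap fixes when a library is left out. IGFBP5 turned to -0.25 with a pseudocount of 0.1 and -0.013 with quantile normalization. With 1 library left out IGFBP5 ran from -1.0 to 1.07, IGFBP3 from -0.62 to 0.54, IGFBP2 from -0.18 to 0.16 and IGF2R from -0.087 to 0.24. The cause was not tested. The median difference of all genes tested was 0.022 in the main setting, -0.005 with quantile normalization and -0.018 with median-ratio scaling, under both of which the same number of members, 6, did not overlap. The IGFBP4 share differed by -12.5 to -7.37 percentage points with 1 library left out.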
